A study of Mus musculus with 8 samples.

Results

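Aminoacyl tRNA synthetases join each amino acid to its tRNA, so that the ribosome can read the codons of an mRNA. Mammalian cells hold separate sets of these enzymes for the cytosol and for mitochondria, most of them encoded by different nuclear genes, and several cytosolic enzymes sit in a multi-synthetase complex held together by scaffold proteins such as Aimp1 and Aimp2. Mutations in a number of them cause leukodystrophies, diseases in which oligodendrocytes fail to make or keep myelin. The members described here were listed by gene symbol and function, by a rule that names no measured value: 21 cytosolic enzymes, 16 mitochondrial enzymes and 2 scaffold proteins. Values were found for 30 of these 39 genes, among 10982 genes in all, namely 16 cytosolic enzymes, 12 mitochondrial enzymes and both scaffold proteins. *Hars*, *Kars*, *Lars*, *Nars*, *Tars*, *Aars2*, *Cars2*, *Fars2* and *Lars2* were not analysed here. All 30 passed the minimum on low values and were tested in each comparison.

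Oligodendrocyte progenitor cells (OPCs) were derived from mouse epiblast stem cells of strain 129S/SvEv and grown in medium with bFGF and PDGFA. Oligodendrocytes were obtained from them in medium with the thyroid hormone T3 together with NT3, cyclic AMP, IGF-1 and noggin, and both cell types were flash-frozen after 3 days and lysed with emetine, which halts ribosomes. Each of 2 OPC cultures and 2 oligodendrocyte cultures gave an RNA-seq library from undigested lysate and a library of ribosome footprints from lysate digested with micrococcal nuclease (MNase), 8 libraries in all. The unit is FPKM, fragments scaled to transcript length and to the size of the library. RNA-seq was counted along full transcripts and footprints along the coding sequence (CDS) alone, so levels of different genes can be set side by side within a kind of library. Below, the values of replicates 1 and 2 are given in that order. Only 1 stem cell background was used, the dishes of each culture were pooled, and the sequenced RNA is that of the whole culture, in which fewer cells of a type and less RNA per cell cannot be told apart.

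The oligodendrocyte markers *Cnp*, *Mag* and *Mog* rose in oligodendrocytes. Of 3 genes listed as OPC markers *Pdgfra* and *Gpr17* rose too, and *Ptprz1* did not pass the test. In RNA-seq *Gpr17* went from 8.38 and 4.91 FPKM in OPCs to 221 and 271 in oligodendrocytes. How these genes relate to the share of OPCs in a culture was not tested. The 3 proliferation markers *Top2a*, *Ccnb1* and *Mcm2* fell, and their summed RNA-seq level was 171 and 232 FPKM in OPCs against 44.6 and 38.6 in oligodendrocytes. Of 5 astrocyte markers 3 rose, and their sum was 244 and 183 FPKM against 977 and 860, with *Aldoc* the largest part in OPCs and *S100b* in oligodendrocytes. The summed neuron markers stood at 21.6 and 15.5 FPKM against 44.2 and 47.6. Most of this sum was *Tubb3*, at 18.5 and 12.3 FPKM against 40.5 and 42.3, the only 1 of 4 neuron markers to pass the test. The single microglia marker, *Csf1r*, was at or near 0 in every RNA-seq library. The part of these differences in the results below was not tested. Estimated depth was lowest in oligodendrocyte replicate 2, with 93.1 Mb (megabases) aligned in footprints and 77.9 Mb in RNA-seq, against 120 to 250 Mb in the other 6 libraries, and 31.1% of transcripts were listed at 0 in its footprints.

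Most members were lower in oligodendrocytes than in OPCs. In RNA-seq 8 of 30 members fell and none rose: the cytosolic enzymes *Vars*, *Farsb* and *Mars*, the mitochondrial enzymes *Ears2*, *Yars2*, *Iars2* and *Vars2*, and the scaffold gene *Aimp1* (limma, Benjamini-Hochberg adjusted p under 0.05 over 8346 transcripts). Over all transcripts tested 20.2% fell by the same rule, against 26.7% of the members. The log2 fold change was below 0 for 28 of 30 members and for 60.0% of all transcripts, with medians of -0.65 and -0.23. Both oligodendrocyte cultures were below both OPC cultures for 23 of the 30 members, where 44.2% of all transcripts showed this. At an unadjusted p under 0.05, 17 members were lower and 0 were higher, where 45.3% of all transcripts had such a p in either direction. Among all 2772 calls 39.1% were higher in oligodendrocytes, or 51.5% after median-ratio scaling, with which 27 members were still below 0 and 7 passed, all of the 8 but *Mars*. With no mean-variance trend in limma *Farsb*, *Mars* and *Aimp1* no longer passed and *Wars2* did.

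The calls depended on the cultures. With the replicate number as a block, since oligodendrocytes were differentiated from the matching OPC cultures, 12 of 30 members passed, the same 8 with *Aars*, *Farsa*, *Rars2* and *Aimp2*, and the share of all transcripts called lower was 24.8%. Without OPC replicate 1 or without OPC replicate 2 none of the 30 passed in RNA-seq (7 and 10 at an unadjusted p under 0.05 in limma, with 32.7% and 29.9% of all transcripts), while calls over all transcripts fell from 2772 to 532 and 364. Without oligodendrocyte replicate 1, 7 of the 8 passed, all but *Mars*, and without oligodendrocyte replicate 2 only *Ears2*, *Yars2* and, in addition, *Aimp2* passed. The log2 fold change stayed below 0 for 27 to 29 of 30 members whichever culture was left out.

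**Figure D1:**
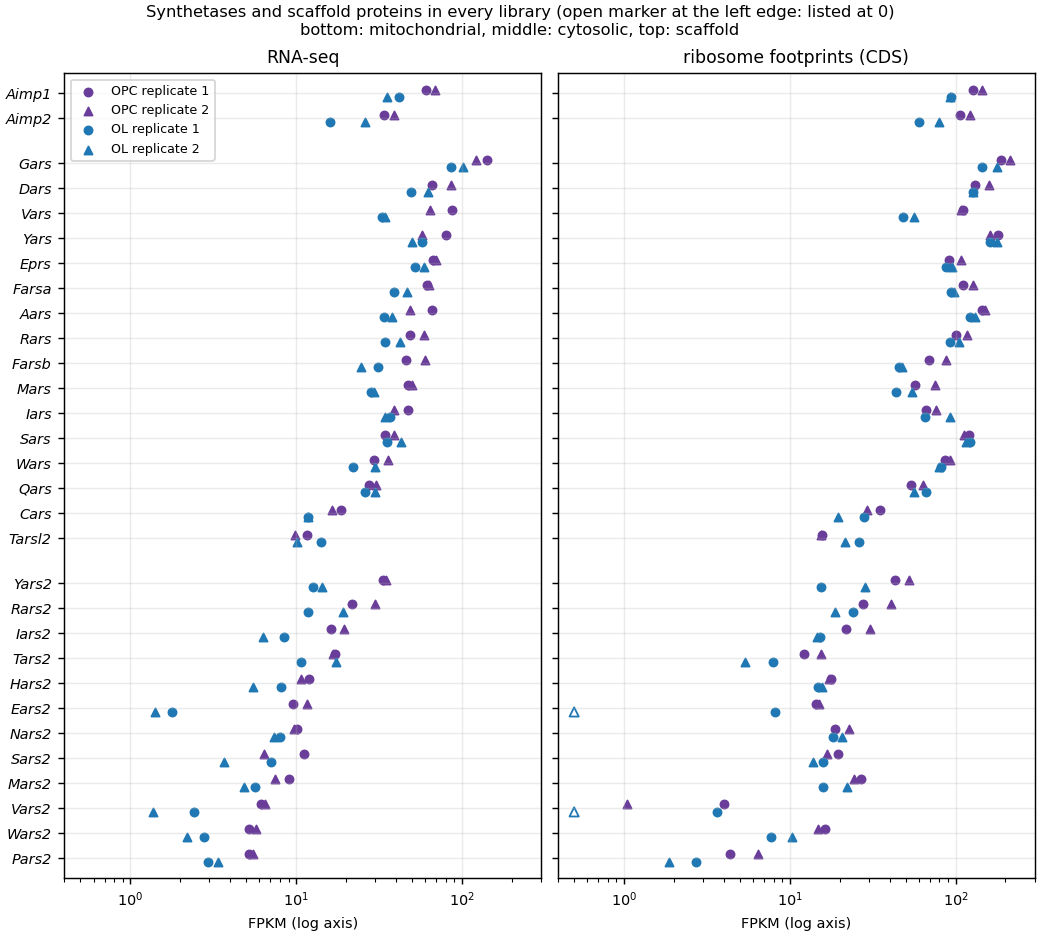
FPKM of the 30 members (vertical axis) in each library on a log axis, RNA-seq at left and footprints at right, with OPCs in purple and oligodendrocytes (OL) in blue, circles for replicate 1 and triangles for replicate 2. Cytosolic enzymes lie mostly above mitochondrial ones, *Ears2*, *Yars2* and *Iars2* have wide gaps between the cell types in RNA-seq, and *Ears2* and *Vars2* are listed at 0 in footprints of OL replicate 2 (open triangles).

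The cytosolic enzymes ranged widely in level. Among them *Gars*, which encodes the glycine enzyme of both cytosol and mitochondria, had the highest RNA-seq level in OPCs at 141 and 122 FPKM, and *Tarsl2*, a second threonine enzyme, had the lowest at 11.7 and 9.81. In oligodendrocytes these 2 genes were again the highest and close to the lowest, at 85.7 and 102 FPKM for *Gars* and 14.1 and 10.1 for *Tarsl2*, with *Cars*, the cysteine enzyme, at 11.8 in both cultures. The 16 genes lay from percentile 45.4 to 95.7 of tested transcripts in OPCs.

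*Vars*, the valine enzyme (GRCm38 chr17:35000987-35016322, plus strand, 30 exons), fell the most of the cytosolic set. Its RNA-seq level was 86.9 and 64.1 FPKM in OPCs and 33.1 and 34.2 in oligodendrocytes, and its footprints fell in parallel, from 112 and 107 to 48.5 and 56.5. Neither kind of library showed overlap between the cell types. The log2 fold change was -1.15 ± 0.20 (SE, adjusted p = 0.00944, limma) in RNA-seq and -1.06 ± 0.14 (adjusted p = 0.0153) in footprints, and without oligodendrocyte replicate 2 the footprint change was -1.17 (adjusted p = 0.0492).

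The cytosolic phenylalanine enzyme is built from 2 kinds of subunit, the alpha subunit from *Farsa* and the beta subunit from *Farsb*. *Farsb* (chr1:78425068-78488897, minus strand, 17 exons) measured 45.9 and 60.0 FPKM in OPCs and 31.2 and 24.6 in oligodendrocytes in RNA-seq, and 69.3 and 87.6 against 45.4 and 47.4 in footprints. *Farsa* (chr8:84856989-84869257, plus strand, 13 exons) measured 61.5 and 63.7 against 39.2 and 46.7 FPKM in RNA-seq, and 111 and 127 against 93.5 and 98.2 in footprints. All 4 of these sets of values were lower in both oligodendrocyte cultures than in both OPC cultures. *Farsb* passed the test in RNA-seq at -0.92 ± 0.22 (adjusted p = 0.0246, limma) and in footprints at -0.75 ± 0.17 (adjusted p = 0.0493). *Farsa* lay just outside in RNA-seq at -0.55 ± 0.17 (adjusted p = 0.0515) and at -0.31 ± 0.13 in footprints (adjusted p = 0.169). With the replicate block *Farsa* passed in RNA-seq (adjusted p = 0.0361) and *Farsb* no longer passed in footprints (adjusted p = 0.0565).

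*Mars*, the methionine enzyme and a member of the multi-synthetase complex (chr10:127296221-127311786, minus strand, 21 exons), stood at 47.1 and 49.7 FPKM in OPCs and 28.3 and 29.7 in oligodendrocytes. The RNA-seq change was -0.74 ± 0.16 (adjusted p = 0.0192, limma), with adjusted p = 0.0527 after median-ratio scaling of the libraries. Its footprints were 56.8 and 75.7 FPKM against 43.6 and 54.9, lower in both cultures but not past the test (-0.42 ± 0.22, adjusted p = 0.250). Exons of *Mars* share 68 bases with *Ddit3* on the other strand, whose RNA-seq level rose, and reads of the 2 genes there cannot be told apart without strand.

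The other 13 cytosolic enzymes did not pass the test in either kind of library. *Aars*, the alanine enzyme, came nearest after *Farsa*, at 65.6 and 48.5 FPKM in OPCs and 33.7 and 38.0 in oligodendrocytes (-0.66 ± 0.20, adjusted p = 0.0552, limma). Of the 5750 exonic bases of *Aars* 1326 are shared with *Exosc6* on the same strand, so part of its RNA-seq signal cannot be told apart from that gene. *Cars*, *Gars*, *Rars* and *Dars* had RNA-seq changes of -0.56, -0.49, -0.49 and -0.44, and *Eprs*, *Iars*, *Wars* and *Yars* of -0.31, -0.28, -0.34 and -0.34. The estimates of *Sars*, *Qars* and *Yars* were nearest 0 in one or both kinds of library, and their intervals still allow moderate changes. *Sars*, the serine enzyme, measured 34.4 and 39.2 FPKM against 35.2 and 42.9 in RNA-seq, a change of 0.08 (95% interval -0.38 to 0.54), and 121 and 113 against 122 and 116 in footprints. *Qars*, the glutamine enzyme, measured 27.5 and 30.4 against 26.1 and 29.8, a change of -0.05 (95% interval -0.49 to 0.39) that was 0.13 after median-ratio scaling. *Yars*, the tyrosine enzyme, overlapped between the cell types in footprints, at 180 and 160 against 162 and 177 FPKM.

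*Tarsl2* was the single member higher in both oligodendrocyte cultures than in both OPC cultures in a kind of library. In footprints 31.8% of all transcripts were higher in this way. *Tarsl2* footprints measured 15.7 and 15.4 FPKM in OPCs and 26.3 and 21.5 in oligodendrocytes. The change of 0.61 ± 0.23 did not pass the test (adjusted p = 0.140, limma; 0.76 and adjusted p = 0.116 without oligodendrocyte replicate 2), and its RNA-seq levels overlapped between the cell types.

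In footprints fewer members passed the test. *Vars*, *Farsb* and *Aimp1* fell, 3 of 30, and 10.8% of all 8342 transcripts tested fell by the same rule. For 21 of the 30 members both oligodendrocyte cultures lay below both OPC cultures, where 37.9% of all transcripts did. The median log2 fold change was -0.16 for the 16 cytosolic enzymes, -0.16 for all transcripts and -0.79 for the 12 mitochondrial enzymes. The cytosolic median was -0.26 without OPC replicate 1 and -0.09 without OPC replicate 2, beside -0.15 and -0.14 for all transcripts. With the replicate block 2 of 30 passed, *Vars* and *Aimp2*, beside 9.63% of all transcripts called lower. The calls of *Farsb* and *Aimp1* were also lost after median-ratio scaling (adjusted p = 0.0750 and 0.0805, limma). Without OPC replicate 1 or OPC replicate 2 none passed (3 at an unadjusted p under 0.05 in each, limma, with 23.3% and 23.0% of all transcripts), and neither did any transcript of the whole set. Without oligodendrocyte replicate 1 *Vars* and *Ears2* passed, the latter against a value of 0. Without oligodendrocyte replicate 2, the shallow library, *Vars* alone passed, and the medians were -0.19 for cytosolic and -0.71 for mitochondrial enzymes with 0.07 over all transcripts.

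**Figure D2:**
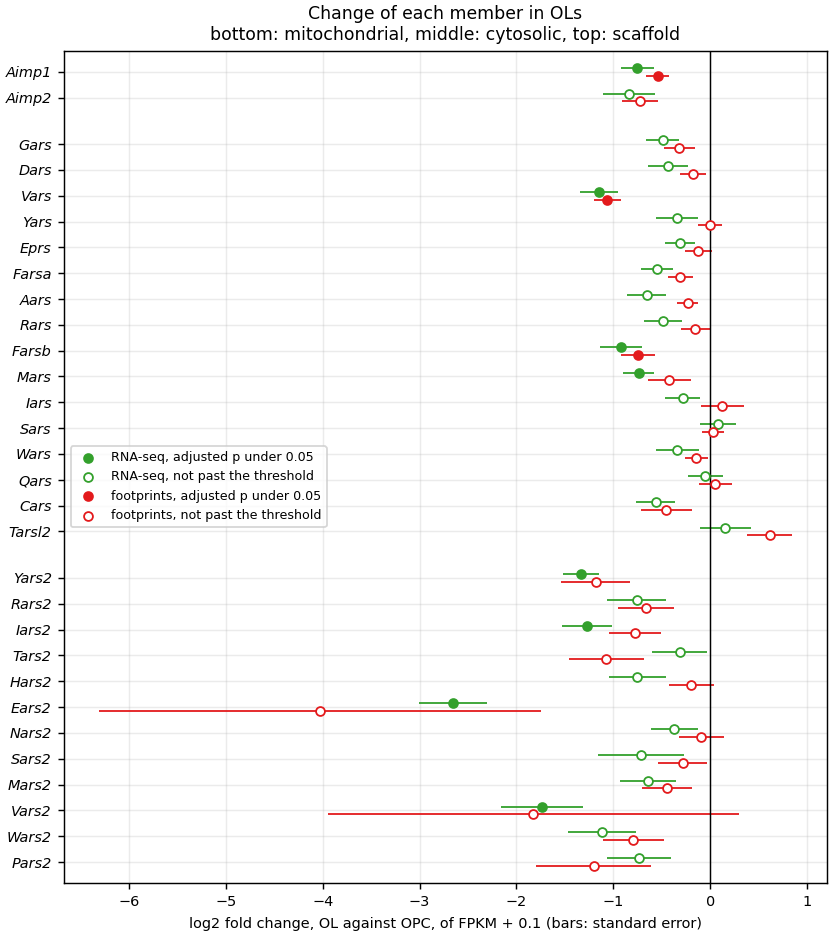
Log2 fold change of each member in oligodendrocytes against OPCs (horizontal axis, FPKM + 0.1) with its standard error as a bar, RNA-seq in green and footprints in red, filled where the adjusted p is under 0.05. Filled points are 8 in RNA-seq and 3 in footprints, all to the left of 0, and the 2 long red bars are *Ears2* and *Vars2*, each with a footprint value of 0 in OL replicate 2.

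Mitochondrial enzymes were expressed at lower levels, with RNA-seq levels in OPCs from percentile 26.7 to 79.1 of tested transcripts. All 12 had a log2 fold change below 0 in RNA-seq and all 12 in footprints, with RNA-seq changes from -0.32 to -2.66. In RNA-seq 4 of 12 fell, which is 33.3%, beside 3 of 16 cytosolic enzymes (18.8%) and 20.2% of all transcripts. The medians were -0.76 and -0.46, beside -0.23 for all transcripts, and the difference between the compartments was not tested. The cytosolic median was -0.35 without oligodendrocyte replicate 1, close to -0.30 for all transcripts. Without oligodendrocyte replicate 2 it was -0.59 beside -0.14. All 4 mitochondrial enzymes that fell belong to class I, the enzymes built on a Rossmann fold (4 of 7). Of the 5 mitochondrial class II enzymes 0 passed, a difference that was not tested. Among cytosolic enzymes 2 of 8 of class I and 1 of 7 of class II fell, and in footprints no mitochondrial enzyme of either class passed.

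*Ears2*, the glutamate enzyme whose loss in patients causes a leukoencephalopathy with high lactate, had the largest change of all members. Its RNA-seq level was 9.52 and 11.7 FPKM in OPCs and 1.79 and 1.41 in oligodendrocytes (chr7:122038821-122067263, minus strand, 9 exons). Both oligodendrocyte values lay far below both OPC values, and the change was -2.66 ± 0.35 (adjusted p = 0.00427, limma), a 6.30-fold lower level. Footprints stood at 14.3 and 15.1 FPKM in OPCs and 8.11 in oligodendrocyte replicate 1, and the gene was listed at 0 in replicate 2, so the footprint change depends on the pseudocount and did not pass (adjusted p = 0.273). Without that library the footprint change was -0.85 ± 0.23 (adjusted p = 0.131). Reads over *Ears2* in oligodendrocytes were few, an estimated 441 and 225 aligned bases in RNA-seq, and 89 of its exonic bases overlap *Ubfd1* on the other strand.

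*Yars2*, the tyrosine enzyme, was the mitochondrial member with the highest RNA-seq level in OPCs, at 33.2 and 34.8 FPKM, and measured 12.6 and 14.4 in oligodendrocytes (chr16:16302978-16309640, plus strand, 5 exons). Its footprints were 43.1 and 52.5 FPKM against 15.5 and 28.3. Both kinds of library separated the cell types, with a change of -1.33 ± 0.19 (adjusted p = 0.00512, limma) in RNA-seq and -1.18 ± 0.36 (adjusted p = 0.0890) in footprints.

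*Iars2*, the isoleucine enzyme (chr1:185284726-185329396, minus strand, 23 exons), measured 16.1 and 19.5 FPKM in OPCs and 8.42 and 6.32 in oligodendrocytes in RNA-seq, and 21.7 and 30.3 against 15.3 and 14.6 in footprints. The cell types did not overlap in either. The RNA-seq change was -1.27 ± 0.26 (adjusted p = 0.0160, limma) and the footprint change -0.78 ± 0.27 (adjusted p = 0.116). Of its 5471 exonic bases 2034 lie opposite *Rab3gap2*, so part of the RNA-seq signal cannot be told apart from that gene.

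*Vars2*, the valine enzyme (chr17:35655634-35667592, minus strand, 29 exons), stood at 6.10 and 6.52 FPKM in OPCs and 2.41 and 1.37 in oligodendrocytes, a change of -1.74 ± 0.42 (adjusted p = 0.0264, limma). Its footprints were at the low end of the set, 3.99 and 1.05 FPKM against 3.63 and a listed 0, with overlap between the cell types, and without oligodendrocyte replicate 2 the footprint change was 0.79 (adjusted p = 0.622). Both valine enzymes fell in RNA-seq. For tyrosine and isoleucine the mitochondrial gene passed and the cytosolic one did not, a difference that was not tested.

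The remaining 8 mitochondrial enzymes were below OPCs without passing the test. *Wars2*, the tryptophan enzyme, was nearest at 5.19 and 5.76 FPKM against 2.77 and 2.19 in RNA-seq (-1.12 ± 0.36, adjusted p = 0.0586, limma) and 16.3 and 14.9 against 7.75 and 10.3 in footprints. *Rars2*, *Hars2*, *Pars2*, *Sars2* and *Mars2* had RNA-seq changes of -0.76, -0.75, -0.74, -0.71 and -0.64. *Nars2* and *Tars2* moved least, at -0.37 and -0.32. *Tars2*, the threonine enzyme, differed between the kinds of library. It measured 17.3 and 16.7 FPKM against 10.7 and 17.4 in RNA-seq, which overlap, and 12.3 and 15.5 against 7.92 and 5.36 in footprints, which do not. In footprints 0 of 12 passed (limma), and 3 had an unadjusted p under 0.05, namely *Yars2*, *Iars2* and *Tars2*, where 38.0% of all transcripts had such a p in either direction.

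Both scaffold proteins were lower in oligodendrocytes in every library. *Aimp1*, whose loss causes a hypomyelinating leukodystrophy (chr3:132660499-132683884, minus strand, 7 exons), stood at 60.7 and 68.9 FPKM in OPCs and 41.6 and 35.4 in oligodendrocytes in RNA-seq, and at 128 and 144 against 94.5 and 92.3 in footprints. The change was -0.75 ± 0.17 (adjusted p = 0.0227, limma) in RNA-seq and -0.54 ± 0.12 (adjusted p = 0.0462) in footprints, where it no longer passed with the replicate block (adjusted p = 0.0616). *Aimp2* measured 34.1 and 39.1 FPKM against 16.02 and 25.99 in RNA-seq and 106 and 123 against 60.2 and 79.2 in footprints, with changes of -0.84 ± 0.27 (adjusted p = 0.0603) and -0.72 ± 0.19 (adjusted p = 0.0666). With the replicate block it passed in both (adjusted p = 0.0175 and 0.0394). The exons of *Aimp2* share 487 bases with *Eif2ak1* on the other strand.

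The 8 measured parts of the multi-synthetase complex, 6 enzymes and the 2 scaffold proteins, had a median RNA-seq change of -0.46, with *Mars* and *Aimp1* past the test. The 10 cytosolic enzymes outside the complex had a median of -0.52, with *Vars* and *Farsb* past it. Of the 6 members with values that are linked to leukodystrophy or related white matter disease (*Dars*, *Eprs*, *Rars*, *Ears2*, *Aimp1* and *Aimp2*), all were lower in both oligodendrocyte cultures than in both OPC cultures in RNA-seq, beside 44.2% of all transcripts, and 2 of them passed the test, *Ears2* and *Aimp1*. In footprints 4 of the 6 were lower without overlap, beside 37.9%, and *Aimp1* passed. The shares of all transcripts called lower by the test were 20.2% in RNA-seq and 10.8% in footprints.

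Of the 16 cytosolic enzymes 9 are on a list of known targets of Atf4, the factor that raises synthetase genes when amino acids run short. In RNA-seq 1 of these 9 fell (*Mars*) with a median of -0.34. Of the other 7 enzymes 2 fell (*Vars* and *Farsb*) with a median of -0.49. Among all transcripts 20.2% fell, with a median of -0.23, and the difference between targets and other enzymes was not tested. In footprints 0 of 9 targets passed (limma), with a median of -0.14, beside 10.8% called lower and -0.16 for all transcripts. Promoters from RefSeq (GRCm38.p6), 250 bases before to 50 after the start of each gene, were searched for TGATGNAA, the core of the amino acid response element, on both strands and with no other motif. The letters were found in 1304 of 32851 promoters (3.97%) and in 4 of the 24 members that have both a promoter in the table and values (16.7%). All 4 are among the 7 Atf4 targets with a promoter and values, and none of the 4 passed the test in either kind of library. Matched windows of 30 bases, 1 for each gene, are shown because they are the sequence these genes share, with the matched letters in capitals, read 5′ to 3′ along the strand of the gene.
Aars, chr8:111033840-111033869, plus strand: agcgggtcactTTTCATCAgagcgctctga
Gars, chr6:55037960-55037989, plus strand: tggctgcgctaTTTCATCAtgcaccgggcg
Iars, chr13:49682126-49682155, plus strand: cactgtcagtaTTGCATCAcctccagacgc
Yars, chr4:129189895-129189924, plus strand: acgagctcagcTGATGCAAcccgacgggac
In *Aars*, *Gars* and *Iars* the capitals are the motif on the opposite strand, and in *Yars* on the strand of the gene. *Aars* holds a second match, also on the opposite strand, which is not shown. The *Aars*, *Gars* and *Iars* windows lie upstream of the starts of the transcripts listed here (chr8:111033902, chr6:55038007 and chr13:49687393). A match describes these letters in this window, and binding was not measured.

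Setting the enzymes side by side by amino acid removes the scaling of the library, since both values come from the same one. For 10 amino acids the mitochondrial and a cytosolic enzyme both had values, with *Eprs* serving glutamate and proline and *Tarsl2* standing for threonine. The log2 ratio of mitochondrial over cytosolic FPKM was lower in oligodendrocytes for 9 of 10 pairs in RNA-seq, with a median difference of -0.68, and for 10 of 10 in footprints, with a median of -0.83. The cultures did not overlap for 5 pairs in RNA-seq and for 8 in footprints. How often other gene pairs separate in this way was not computed. Of single transcripts 44.2% in RNA-seq and 37.9% in footprints were lower without overlap. The glutamate and proline pairs share *Eprs* and are not independent. Without the glutamate and valine pairs, which hold the values listed at 0, the footprint median was -0.78 over 8 pairs.

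The isoleucine pair showed this in both kinds of library, with *Iars2* over *Iars* at -1.55 and -1.004 in OPCs and -2.11 and -2.42 in oligodendrocytes in RNA-seq, and -1.60 and -1.33 against -2.09 and -2.65 in footprints. For tyrosine the ratio of *Yars2* to *Yars* was -1.28 and -0.71 against -2.18 and -1.80 in RNA-seq, and -2.06 and -1.61 against -3.38 and -2.64 in footprints. Tryptophan and proline also separated in both. The methionine pair overlapped between the cell types, with *Mars2* over *Mars* at -2.36 and -2.73 against -2.30 and -2.59 in RNA-seq. The threonine pair, *Tars2* over *Tarsl2*, overlapped in RNA-seq and separated in footprints, at -0.35 and 0.01 in OPCs and -1.72 and -1.99 in oligodendrocytes.

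Summed over the compartments, the 12 mitochondrial enzymes came to 17.8% and 19.3% of the 16 cytosolic enzymes in RNA-seq of OPCs and to 13.9% and 13.4% in oligodendrocytes. In footprints the shares were 14.5% and 15.2% against 11.1% and 10.4%. The cytosolic sum counts *Gars*, which serves both compartments and was the highest cytosolic gene in RNA-seq of OPCs (141 and 122 FPKM). Shares without *Gars* were not computed. Both kinds of library separated the cell types, and 2 cultures against 2 cannot give a two-sided exact permutation p below 0.333. *Yars2* made up between 10.3% and 21.2% of the mitochondrial sum, and without it the shares were 14.03% and 15.2% against 11.8% and 11.2% in RNA-seq and 11.8% and 12.1% against 9.92% and 8.46% in footprints, still without overlap.

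**Figure D3:**
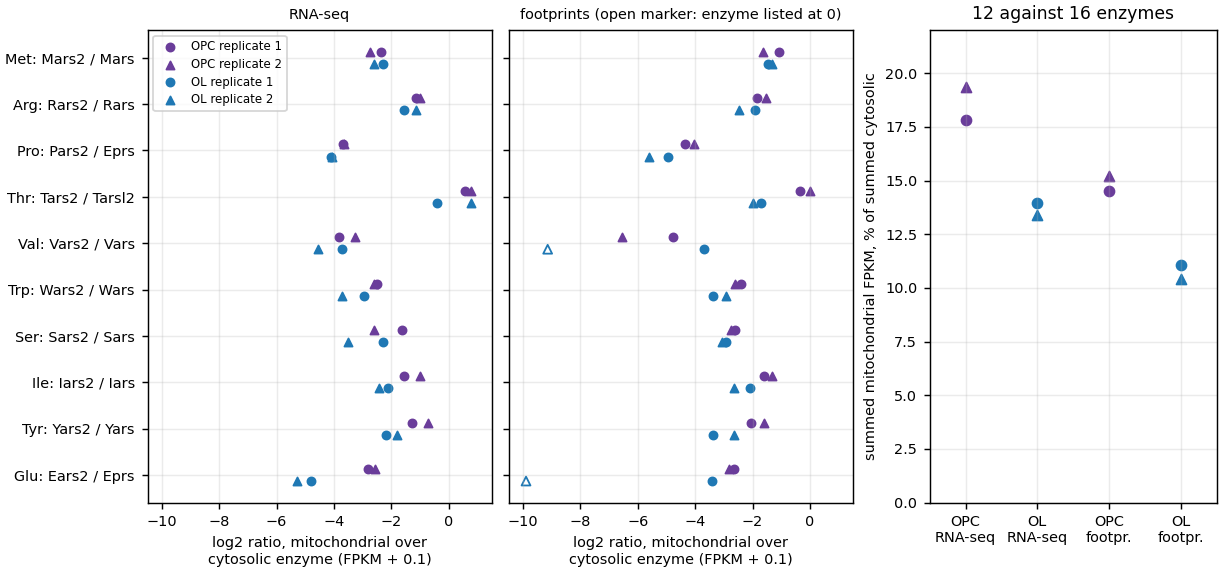
Left and centre: log2 ratio of mitochondrial over cytosolic enzyme for 10 amino acids in each library, OPCs in purple and oligodendrocytes (OL) in blue, circles for replicate 1 and triangles for replicate 2. Right: summed mitochondrial FPKM as a percentage of summed cytosolic FPKM, where the 2 OPC points (17.8 and 19.3 in RNA-seq, 14.5 and 15.2 in footprints) lie above the 2 oligodendrocyte points (13.9 and 13.4, 11.1 and 10.4).

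Ribosome density (RD), footprint FPKM divided by RNA-seq FPKM of the same culture, is a proxy for translation of each mRNA. The change in RD was tested as an interaction over all 8 libraries, where 1 of 8056 transcripts passed (0.0124%) and 387 had an unadjusted p under 0.05. Of the 30 members 0 passed (limma), 0 had an unadjusted p under 0.05, and the log2 fold change was below 0 for 5, or for 11 after median-ratio scaling. The median change was 0.22 for cytosolic and 0.17 for mitochondrial enzymes beside 0.10 for all transcripts, and with that scaling the medians were 0.06, 0.01 and -0.06. The mitochondrial median was 0.11 without OPC replicate 1, 0.46 without oligodendrocyte replicate 1 and 0.10 without oligodendrocyte replicate 2, where all transcripts were at 0.07, 0.03 and 0.20, so in the last case it lay below them.

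Median RD of all transcripts was 1.72 and 1.77 in OPCs and 2.02 and 1.95 in oligodendrocytes. Cytosolic enzymes had medians of 1.85 and 1.91 in OPCs and 2.38 and 2.07 in oligodendrocytes, above the median of all transcripts in each culture. Only 9 and 10 of 16 in OPCs, and 9 and 9 in oligodendrocytes, were above it. Mitochondrial enzymes had medians of 1.42 and 1.53 in OPCs and 1.94 in oligodendrocyte replicate 1, each below that of all transcripts. In oligodendrocyte replicate 2 the median was 2.55, above it, but rests on 10 enzymes because *Ears2* and *Vars2* were listed at 0. *Aars* had an RD of 2.22 and 3.10 in OPCs and 3.61 and 3.44 in oligodendrocytes (0.42 ± 0.24, adjusted p = 0.875, limma), the highest values of the 4 being those of oligodendrocytes. *Tars2* went the other way, from 0.71 and 0.93 to 0.74 and 0.31, with overlap (-0.76 ± 0.48, adjusted p = 0.875). *Tarsl2* moved from 1.34 and 1.57 to 1.87 and 2.12 (0.46 ± 0.36, adjusted p = 0.875) and *Iars* from 1.39 and 1.95 to 1.78 and 2.70 (0.41 ± 0.29, adjusted p = 0.875). The numerator of RD covers the CDS and the denominator the full transcript, and the 2 differ most for *Mars2*, whose listed transcript has 11294 exonic bases and a CDS of 1758. The denominator for *Aars* includes the 1326 bases shared with *Exosc6*.

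**Figure D4:**
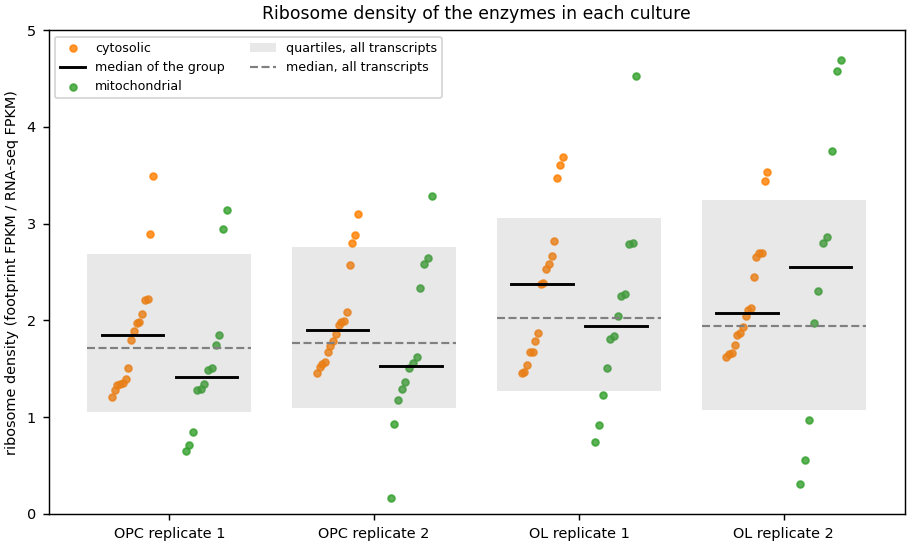
Ribosome density (vertical axis, footprint FPKM over RNA-seq FPKM) of cytosolic (orange) and mitochondrial (green) enzymes in each culture, with a black line at the median of each group, a dashed line at the median of all transcripts and a grey box over their quartiles. Cytosolic medians (1.85, 1.91, 2.38 and 2.07) lie above the dashed line in every culture, with 9, 10, 9 and 9 of 16 enzymes above it. Mitochondrial medians lie below it in OPCs (1.42 and 1.53) and OL replicate 1 (1.94). In OL replicate 2 the mitochondrial median, of 10 enzymes, lies above it (2.55).

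The study measured tRNA charging and reports most tRNAs as fully charged in both cell types, except Cys-GCA, less charged in oligodendrocytes. The relation of charging to the levels above was not tested. The study also reports altered effects of phenylalanine and lysine codons in oligodendrocytes. On these codons the coding sequences of the members were compared with those of all listed transcripts. UUU made up a median of 46.2% of Phe codons in cytosolic and 47.4% in mitochondrial enzymes, and 42.9% in all listed transcripts. AAA made up 36.2% and 37.5% of Lys codons, and 36.8% in all. Members ranged from 16.7% UUU in *Sars2* to 80.0% in *Aimp1*, which has only 5 Phe codons. The subunits of the phenylalanine enzyme stood far apart, with 20.8% UUU and 19.4% AAA in *Farsa* and 61.5% UUU and 46.8% AAA in *Farsb*.

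Charged tRNAs are carried to the ribosome by elongation factors, and these were examined as a further list. In RNA-seq 3 of 5 tested delivery factors fell, *Tsfm* (39.4 and 40.4 FPKM against 14.1 and 13.1, adjusted p = 0.00294, limma), *Tufm* (74.0 and 63.7 against 35.3 and 23.3, adjusted p = 0.0132) and *Eef1b2* (280.1 and 296.7 against 171 and 203, adjusted p = 0.0295). *Tufm* and *Tsfm* serve mitochondrial translation, and *Eef1b2* recharges the cytosolic factor Eef1a with GTP. The shares of all transcripts called lower were 20.2% in RNA-seq and 10.8% in footprints. In footprints 4 of 5 delivery factors fell, the same 3 and *Eef1g*, another subunit of the cytosolic exchange factor. Their changes ran from -1.21 (*Tufm*) to -1.45 (*Eef1b2*). With OPC replicate 1 or OPC replicate 2 left out none of these calls held, and that of *Eef1b2* in RNA-seq was lost whichever culture was left out and after median-ratio scaling (adjusted p = 0.126). Without oligodendrocyte replicate 2 those of *Tsfm* and *Eef1g* in footprints were lost too (adjusted p = 0.0532 and 0.0549). With all cultures kept, the RNA-seq call of *Eef1b2* held in 6 of 8 processing settings and the footprint call of *Tufm* in 7 of 8. *Eef1a1* itself did not pass in either kind of library.

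Among 5 partners of mitochondrial charging 2 fell in RNA-seq and 0 in footprints, beside 20.2% and 10.8% of all transcripts. The log2 fold change was below 0 for 4 of the 5 in each kind of library. *Gatb*, a subunit of the amidotransferase that makes glutaminyl tRNA in mitochondria, was 1 of the 2. It measured 5.79 and 5.37 FPKM in OPCs and 2.32 and 1.03 in oligodendrocytes in RNA-seq (-1.78 ± 0.50, adjusted p = 0.0402, limma). The cell types did not overlap, and its footprints did not pass the test (-1.02 ± 0.42, adjusted p = 0.169). The RNA-seq call was lost with OPC replicate 1 or OPC replicate 2 left out and without oligodendrocyte replicate 2. With all cultures kept it held in 5 of 7 processing settings, and was lost with no minimum on low values among others (limma adjusted p up to 0.0644). Among 6 genes of tRNA supply and proofreading 3 fell in RNA-seq, *Aarsd1* (-1.20), *Pstk* (-0.88) and *Prorsd1*, beside 20.2% of all transcripts (10.8% in footprints). *Prorsd1* was at 2.59 and 2.66 FPKM in OPCs and at 0.35 and a listed 0 in oligodendrocytes. In footprints *Aarsd1* and *Prorsd1* fell, the latter listed at 0 in both oligodendrocyte cultures, and the CCA-adding enzyme *Trnt1* did not pass in either. The calls of *Aarsd1* were lost with no trend (adjusted p = 0.0937 in RNA-seq and 0.107 in footprints) and, in footprints, with the replicate block (adjusted p = 0.0654) and whichever culture was left out. With all cultures kept they held in 6 of 8 processing settings in RNA-seq and in 5 of 8 in footprints. In RNA-seq those of *Aarsd1* and *Pstk* were lost with OPC replicate 1, OPC replicate 2 or oligodendrocyte replicate 2 left out. *Prorsd1* lost its call in footprints with the replicate block (adjusted p = 0.110) and with OPC replicate 1 or OPC replicate 2 left out, and in RNA-seq without OPC replicate 1. With all cultures kept its RNA-seq call held in 6 of 7 processing settings (limma adjusted p up to 0.0856).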

How the data were processed

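Ribosome footprints and total RNA of 2 OPC and 2 oligodendrocyte cultures were sequenced, giving 8 libraries grouped by cell type and kind of library as in the labels. The authors trimmed adapters with fastx_clipper, mapped reads to GRCm38 with HISAT2 2.1.0 and deposited FPKM tabulated with StringTie 1.3.5 and ballgown for canonical coding transcripts of a Gencode annotation, over whole transcripts for RNA-seq and the CDS for footprints. Their StringTie code gives no strand option, so opposite genes are not separated. All 8 columns of values were used and 0 were left unmapped. The deposited FPKM hold no counts, so the count test of the study could not be run.

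Members and gene lists were chosen with earlier results of these data known. The text may name every member, and of the lists those past the threshold, and a few items are not reported here. Values were tested on log2(FPKM + 0.1) with limma 3.58.1 in R 4.3.3 (eBayes with a trend, two-sided, Benjamini-Hochberg adjusted over all transcripts, threshold 0.05), keeping transcripts whose mean reached 1 FPKM. RNA-seq and footprints were fitted separately and RD as an interaction. Errors are standard errors of the fit, with 2 cultures a group. Fold changes are on the log2(FPKM + 0.1) scale and understate the change of low genes. Same-numbered cultures were taken as pairs, because the study states that the oligodendrocytes correspond to the OPC replicates. Deviations of same-numbered cultures correlated at 0.108 in RNA-seq and 0.0860 in footprints (Pearson, across transcripts). The fits were also run on simulated data, whose outcome is not given here and is not used as support.

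The spacing of low FPKM values gave an estimate of depth, 77.9 to 241 Mb aligned in RNA-seq and 93.1 to 250 Mb in footprints. Coordinates, exons and CDS were taken from Gencode vM21 (GRCm38), where all 10987 listed transcripts were found. Alternatives were another pseudocount, minimum or scaling, no trend, the replicate block, RD per culture and each culture left out.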

Additional observations from a re-analysis of the deposited data

How the results depend on the processing

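Counts of cytosolic enzymes past the threshold in RNA-seq (3) were 5 with a pseudocount of 1, 5 with a minimum mean of 5 FPKM, 1 with no trend and 0 to 2 with a culture left out, and in footprints (2) were 1 with a pseudocount of 0.01, no minimum or median-ratio scaling, 0 with no trend and 0 to 1 with a culture left out. Mitochondrial counts ranged from 0 to 4 in RNA-seq and 0 to 1 in footprints when a culture was left out, and members past it in RD from 0 to 1, where the single gene was *Ears2* against a footprint value of 0. The replicate block, which pairs cultures of the same number, gave 5 cytosolic enzymes in RNA-seq and 1 in footprints, and over all transcripts 3323 (RNA-seq), 1735 (footprints) and 1 (RD). It changed no call of a member other than those given above. Over all transcripts the counts with a culture left out ran from 364 to 2599 in RNA-seq (2772 with all), from 0 to 3442 in footprints (1969) and from 0 to 883 in RD (1). Footprints gave 1036 calls with no trend, and RD gave 3 with a pseudocount of 0.01, 3 with median-ratio scaling, 14 with no trend and 0 per culture. Median-ratio scaling moved the RNA-seq median of all transcripts from -0.23 to -0.05 and the share of higher calls from 39.1% to 51.5%. No trend moved it from 54.1% to 64.8% in footprints. The cause of these shifts was not tested.

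Directions changed only for members that did not pass the test in that kind of library. With median-ratio scaling *Qars* in RNA-seq was 0.13 and *Yars* in footprints 0.017. With a culture left out the log2 fold changes ran from -0.15 to 0.044 for *Qars*, -0.062 to 0.22 for *Sars*, -0.66 to 0.034 for *Tars2* and -0.076 to 0.39 for *Tarsl2* in RNA-seq, and from -0.12 to 0.37 for *Iars*, -0.23 to 0.045 for *Nars2*, -0.070 to 0.17 for *Qars*, -0.019 to 0.072 for *Sars*, -0.084 to 0.078 for *Yars* and -4.44 to 0.79 for *Vars2* in footprints. The last holds a value of 0 in oligodendrocyte replicate 2.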

Other observations

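The amino acid response, the set of genes that Atf4 and its partners raise when amino acids run short, was examined beyond the synthetases. Its genes went both ways in RNA-seq, where 3 of 10 tested fell and 2 rose. All transcripts did so too, and of 8346 tested 1689 fell (20.2%) and 1083 rose. *Slc7a5*, the light chain of a transporter for large neutral amino acids, measured 53.2 and 39.7 FPKM in OPCs and 13.5 and 19.5 in oligodendrocytes (-1.50 ± 0.26, adjusted p = 0.00944, limma), and its footprints fell as well (-1.27 ± 0.12, adjusted p = 0.00899). *Mthfd2*, an enzyme of mitochondrial folate metabolism, fell from 42.5 and 34.7 FPKM to 4.48 and 6.22 in RNA-seq (-2.84 ± 0.26, adjusted p = 0.00152). *Phgdh*, the first enzyme of serine synthesis, was at 69.7 and 80.6 FPKM against 42.3 and 39.7 (-0.87 ± 0.16, adjusted p = 0.0122). These 3 genes separated the cell types in RNA-seq. None of these calls held with OPC replicate 1 or OPC replicate 2 left out, and that of *Phgdh* was also lost without oligodendrocyte replicate 2 (adjusted p = 0.0641).

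Going the other way, *Slc7a11*, the cystine and glutamate exchanger, rose from 13.5 and 14.1 FPKM to 30.1 and 36.9 in RNA-seq (1.27 ± 0.20, adjusted p = 0.00698, limma), while its footprints were 5.36 and 4.46 against 4.01 and a listed 0 and did not pass. *Ddit3*, a stress-induced transcription factor whose gene shares 68 exonic bases with *Mars*, rose from 12.1 and 8.79 FPKM to 17.0 and 21.3 in RNA-seq (0.88 ± 0.26, adjusted p = 0.0483) and from 1.31 and 1.34 to 10.6 and 9.27 in footprints (2.81 ± 0.52, adjusted p = 0.0311). The RNA-seq call of *Ddit3* was lost whichever culture was left out (adjusted p from 0.0662 to 0.236), with a pseudocount of 0.01, no minimum or no trend (up to 0.0871), and its footprint call with the replicate block (0.0780) and with OPC replicate 1 or OPC replicate 2 left out. That of *Slc7a11* was lost with OPC replicate 1 or OPC replicate 2 left out (adjusted p = 0.0709 and 0.0790). *Asns*, the asparagine synthetase often used as a readout of Atf4, did not pass in either kind of library.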
